A study of Homo sapiens with 4 samples.

Results

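CDC6, CDT1, CDC45, PCNA and TIMELESS encode proteins that load the replicative helicase at origins or work at the moving replication fork. They were chosen by name, as every probe set whose annotated gene symbol is 1 of the 5, and each symbol had 1 probe set. The 5 genes are 5 of 14884 genes named on the array, and all 5 were among the 10696 that were bright enough to be tested. They were picked with earlier results of the comparison of BRPF3 siRNA with control siRNA in view, so their differences in it are given as a description and support no claim.

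The cells were U2OS, an established human osteosarcoma line. Both groups were transfected with siRNA at 50 nM using a lipid reagent and harvested after 48 hours, 1 with a scrambled control siRNA and 1 with siRNA against BRPF3, with 2 arrays in each. BRPF3 is a scaffold of histone acetyltransferase complexes that contain KAT7 (HBO1), an enzyme known for its link to replication origins. The siRNA sequences are not given in the labels, and neither the BRPF3 transcript nor a rescue or a further siRNA was analysed here. The arrays of a group are called biological replicates, but whether their cultures were grown apart is not said, so a p-value here reflects array-to-array spread that may be technical.

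Replication in human cells is prepared in G1, when CDC6 and CDT1 act with the origin recognition complex to load MCM helicase rings onto DNA. In S phase CDC45 and the GINS complex join the rings and turn them into active helicases. PCNA, a ring-shaped clamp, then holds DNA polymerases on their template and recruits repair and chromatin assembly factors, while TIMELESS and its partner TIPIN ride with the fork, stabilise it and help to signal its stalling. CDT1 is destroyed in S phase on DNA-bound PCNA through the DTL (CDT2) ubiquitin ligase, which limits each origin to a single firing per cycle. Transcription of many of these genes is driven by E2F factors late in G1.

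The promoters of the 5 genes are shown because shared E2F control is the feature for which this group is known. RefSeq windows (GRCh38.p14) from 250 bases before to 50 bases after each transcript start were searched on both strands for the E2F-type sequence TTTNNCG in which both N are G or C, the CCAAT box (CCAAT), the GC box (GGGCGG), the E-box (CACGTG) and the core of the cyclic AMP response element (TGACGT). All 5 genes had a window, PCNA with 2 starts and CDC45 with 3. The last 150 bases before the start follow in the direction of transcription, with matches to these sequences in capitals, and for CDC45 a site of 30 bases at the most downstream of its starts. The windows lie at chr17:40287729-40287878 on the plus strand (CDC6), chr16:88803639-88803788 on the plus strand (CDT1), chr22:19479883-19479912 on the plus strand (CDC45), chr20:5126623-5126772 on the minus strand (the upstream start of PCNA), chr20:5119959-5120108 on the minus strand (the downstream start of PCNA) and chr12:56449427-56449576 on the minus strand (TIMELESS).
CDC6: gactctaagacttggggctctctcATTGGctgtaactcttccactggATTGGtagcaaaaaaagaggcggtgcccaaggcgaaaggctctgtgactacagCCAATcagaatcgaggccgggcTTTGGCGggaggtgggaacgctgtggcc
CDT1: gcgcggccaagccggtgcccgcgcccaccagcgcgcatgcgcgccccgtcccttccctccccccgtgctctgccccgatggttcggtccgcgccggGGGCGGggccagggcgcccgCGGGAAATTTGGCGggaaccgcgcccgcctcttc
CDC45, most downstream start: gaggagccgtgaTTTGGCGggagtcttgac
PCNA, upstream start: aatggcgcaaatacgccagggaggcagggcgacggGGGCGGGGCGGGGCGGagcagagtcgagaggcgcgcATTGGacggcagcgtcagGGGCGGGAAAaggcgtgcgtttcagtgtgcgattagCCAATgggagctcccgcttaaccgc
PCNA, downstream start: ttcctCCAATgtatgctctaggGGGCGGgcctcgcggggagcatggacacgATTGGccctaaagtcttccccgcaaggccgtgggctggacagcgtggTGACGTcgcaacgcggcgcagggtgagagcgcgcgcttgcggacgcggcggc
TIMELESS: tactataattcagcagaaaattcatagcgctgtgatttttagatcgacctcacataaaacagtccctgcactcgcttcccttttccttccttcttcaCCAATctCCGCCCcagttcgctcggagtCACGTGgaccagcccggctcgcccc

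An E2F-type sequence was found for 4 of the 5 genes. CDC6 had the same sequence, TTTGGCG, 28 bases before its start and again just after it. CDT1 had a back-to-back pair that begins 34 bases before the start, CDC45 had a match 25 bases before its most downstream start, and PCNA had a match 58 bases before its upstream start that overlaps a GC box. TIMELESS had no E2F-type match in its window, which says only that these letters are not there. It carried the only E-box of the 5 genes, 25 bases before the start, and the downstream PCNA start carried the only cyclic AMP response core, 52 bases before it.

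Over all 35116 promoter windows in the table an E2F-type sequence was present in 8.67%, a CCAAT box in 34.6%, a GC box in 45% of windows, an E-box in 7.26% and the cyclic AMP response core in 7.98%. Counted per gene, over all of its starts, 10.4% of 27305 genes had an E2F-type match. Of the 38 tested replication genes with a window 30 had one (78.9%), and these 38 include the 5 genes. The 27305 genes were not limited to those tested on the array, so these shares cover unlike sets of genes. A match is a description of the sequence and was not tied to binding or to the array values.

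**Figure D1:**
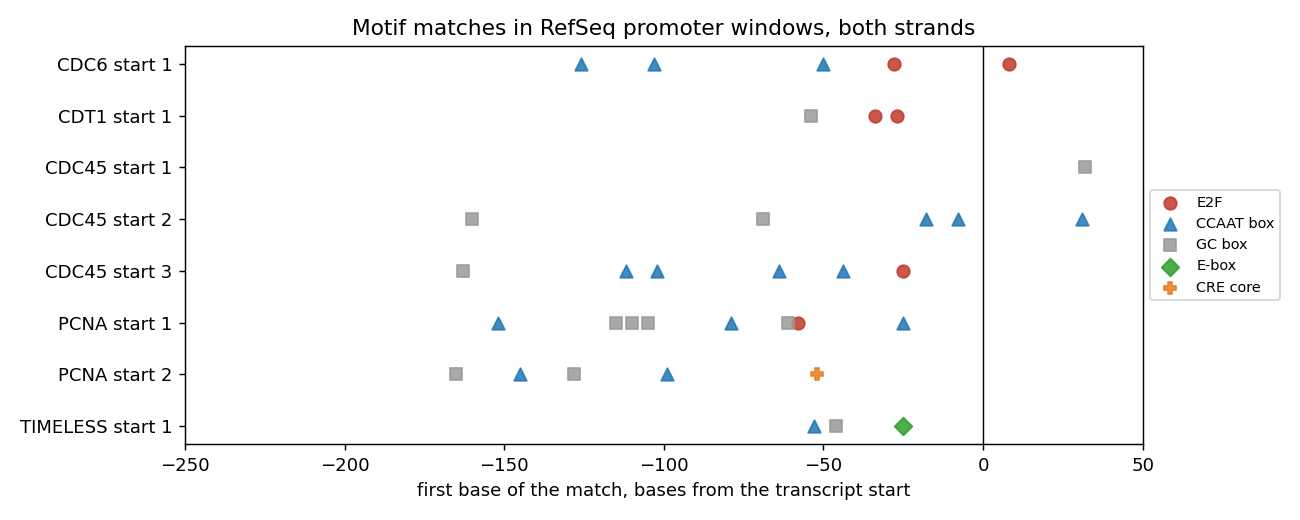
Matches to 5 kinds of motif in the promoter windows of CDC6, CDT1, CDC45, PCNA and TIMELESS, 1 row per transcript start, plotted by the distance of their first base from the start in bases. E2F-type matches (red circles) lie within 58 bases before the start or just after it in CDC6, CDT1, CDC45 start 3 and PCNA start 1, and none is in the TIMELESS row.

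After BRPF3 siRNA the 5 genes did not shift in 1 direction: PCNA fell, TIMELESS rose, and CDC6, CDT1 and CDC45 did not pass the test. A gene counts as risen or fallen where its adjusted p was under 0.05 (limma over all 10696 tested genes, Benjamini-Hochberg adjustment). Of the 5 genes 1 rose and 1 fell, where 15.8% of all tested genes changed, 6.32% rising and 9.44% falling. The groups did not overlap for 3 of the 5 genes, where they did not overlap for 63.2% of all tested genes. Nothing is read from these counts, since the genes were chosen on this contrast. All values are log2 RMA values as deposited, in which a difference of 1 is a 2-fold change, and they compare 1 gene between arrays but not the levels of different genes. Differences are BRPF3 siRNA minus control siRNA, each ± limma's moderated standard error with n = 2 arrays per group. In whole cultures, fewer cells in a phase of the cell cycle and less transcript per cell cannot be told apart.

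Among the helicase loaders, CDC6 is the ATPase that joins the origin recognition complex to admit the MCM ring. Its values were 9.65 and 9.61 after control siRNA against 9.47 and 9.37 after BRPF3 siRNA. Both BRPF3 siRNA arrays lay below both controls, as they did for 35.9% of all tested genes. The difference was -0.21 ± 0.08, with a 95% interval from -0.41 to -0.0072, and did not pass the test after adjustment over all genes. It became a call when the variance prior was allowed to depend on intensity.

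CDT1, the partner that delivers MCM rings to CDC6 and the origin recognition complex, had values of 9.15 and 9.10 after control siRNA and of 9.18 and 8.90 after BRPF3 siRNA. The groups overlapped, with 1 BRPF3 siRNA array above both controls and the other below them. CDT1 was the least reproducible of the 5 genes, with an SD of 0.20 between the BRPF3 siRNA arrays against 0.04 between the controls. Its difference was -0.09 ± 0.11 (95% interval -0.36 to 0.19). Without BRPF3 siRNA replicate 2 the difference was 0.05, and without replicate 1 of that group it was -0.23.

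CDC45, the subunit that activates the loaded helicase together with GINS, had values of 8.82 and 8.93 after control siRNA against 8.91 and 8.89 after BRPF3 siRNA. The BRPF3 siRNA arrays lay between the 2 controls. The difference was 0.03 ± 0.08, and the 95% interval ran from -0.18 to 0.23. A change of that size in either direction is thus not resolved by these arrays. Without control replicate 1 the difference was -0.03.

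PCNA had the largest difference of the 5 genes in size, on the deposited values and under all 11 alternative settings. Its values were 10.39 and 10.44 after control siRNA against 9.95 and 9.83 after BRPF3 siRNA. Both BRPF3 siRNA arrays lay below both controls, and the gap was wide against the SDs of 0.04 and 0.08 within them. PCNA fell by 0.52 ± 0.08 on the log2 scale, a level 1.44-fold lower (95% interval of the log2 difference -0.73 to -0.31), and 4.21% of all tested genes had a difference at least as far below. The call ended when all named genes were tested without an intensity filter and when either control array or BRPF3 siRNA replicate 2 was left out.

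TIMELESS had values of 9.00 and 9.01 after control siRNA against 9.37 and 9.34 after BRPF3 siRNA. These were the tightest replicates of the 5 genes taken over both groups, with SDs of 0.01 and 0.02, and both BRPF3 siRNA arrays lay above both controls, as in 27.3% of all tested genes. TIMELESS rose by 0.35 ± 0.08, which is 1.27-fold (95% interval 0.16 to 0.54). Its moderated SE is larger than its own arrays alone would give, since limma draws each variance towards that of all genes. The call ended without the intensity filter and when any single array was left out.

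**Figure D2:**
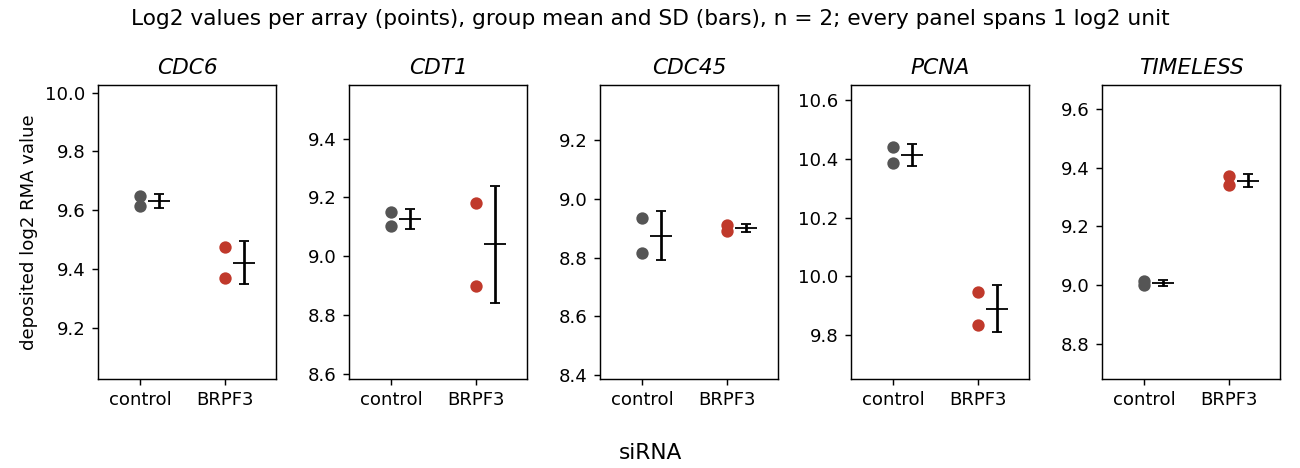
Deposited log2 RMA values of CDC6, CDT1, CDC45, PCNA and TIMELESS on the 4 arrays (points: grey, control siRNA, red, BRPF3 siRNA), with the mean and SD of each group beside them (n = 2 arrays per group). Each panel spans 1 log2 unit. The groups are apart for CDC6, PCNA and TIMELESS and overlap for CDT1 and CDC45.

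The changes of the genes relative to each other were measured within each array, which removes any shift common to all probe sets. The log2 gap of TIMELESS over PCNA was larger by 0.87 after BRPF3 siRNA, with SDs of 0.03 between control arrays and 0.06 between BRPF3 siRNA arrays. The gap of PCNA over CDC6 changed by -0.31, with SDs of 0.06 and 0.01. The gap of CDT1 over CDC6 moved by 0.12, about the size of the SD of 0.12 between the BRPF3 siRNA arrays. These gaps show unequal change only, not which gene stayed still.

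The other genes of DNA replication were taken from 7 lists by role, with 91 genes in all. The lists were drawn up with earlier results of these data known. Of the 91 genes 46 were named and tested, and 1 rose, 2 fell and 43 did not pass. Without the 5 genes above, 0 of 41 rose and 1 fell in limma's test, against 15.8% changed over all genes, a contrast for which no test of the difference was run. At an unadjusted p under 0.05 there were 12 of the 46, where 34.6% of all tested genes were under it. The median difference of the 46 genes was -0.10, beside -0.03 over all tested genes, and it was -0.03 after quantile normalization. With an intensity trend in the variance prior, 3 rose and 10 fell, where 24.7% of all tested genes changed, and with a filter at the 75th percentile of intensity 34.1% of all tested genes changed. The counts given for the lists at an unadjusted p and under these settings are to be read against these shares. The replicative polymerases, primase, the RFC clamp loader, the origin recognition complex, geminin and RPA were not analysed here.

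In the list of the pre-replication complex, 8 of 15 genes were tested, and 0 rose and 0 fell in limma's test (1 at an unadjusted p under 0.05, CDC6). Beside CDC6 and CDT1 these were the ring subunits MCM2 to MCM7. CDC6 was the lowest and MCM7 the highest (0.10 ± 0.08, adjusted p = 0.422). The difference was above 0 for 4 of the 8.

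Among 13 tested genes of helicase activation and origin firing 0 rose and 0 fell in limma's test, and 3 had an unadjusted p under 0.05 (34.6% over all genes). The largest positive difference was that of GINS1, a subunit of the GINS complex that binds CDC45 (0.27 ± 0.08, adjusted p = 0.0741). The largest negative one was that of DBF4, which activates the origin kinase CDC7 (-0.27 ± 0.08, adjusted p = 0.0740). CDC7 itself differed by -0.17 ± 0.08 (adjusted p = 0.188). GINS1 and DBF4 both passed with an intensity trend and with a filter at the 75th percentile of intensity. After quantile normalization and after cyclic loess GINS1 passed as well (0.34 under both), while DBF4 did not (-0.21 and -0.20).

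The clamp list held 4 tested genes of 16, and 0 rose and 2 fell, where 9.44% of all tested genes fell. Of the 2 fallen genes 1 was PCNA itself, which was chosen on this contrast. Without PCNA 3 genes were tested and 1 fell. DSCC1, a subunit of the CTF18 complex that loads PCNA and is needed for sister chromatid cohesion, had values of 9.46 on both control arrays against 8.58 and 8.52 after BRPF3 siRNA. The groups were far apart, and DSCC1 fell by 0.91 ± 0.08 on the log2 scale (limma, adjusted p = 0.00756), a level 1.88-fold lower and a larger difference than that of PCNA. This call ended when either control array was left out (adjusted p = 0.0699 and 0.0816). The nucleases that process Okazaki fragments did not pass: FEN1 differed by -0.05 ± 0.09 (adjusted p = 0.723) and DNA2 by -0.18 ± 0.08 (adjusted p = 0.188).

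Of 11 tested genes that modify or bind PCNA, 0 rose and 0 fell in limma's test, and 1 had an unadjusted p under 0.05. That gene was RAD18, the ubiquitin ligase that marks PCNA at stalled forks, with the lowest difference of the list (-0.26 ± 0.09, adjusted p = 0.0946). The deubiquitinase USP1 differed by -0.16 ± 0.09 (adjusted p = 0.260). DNMT1, the maintenance DNA methyltransferase that binds PCNA, had the highest difference (0.17 ± 0.08, adjusted p = 0.186). PCLAF, a small protein that threads through the clamp, differed by -0.0089 ± 0.08 (adjusted p = 0.946). RAD18 and DNMT1 passed with an intensity trend, and RAD18 also passed with a filter at the 75th percentile.

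The PCNA locus on chromosome 20 also holds PCNA-AS1, a long noncoding RNA that overlaps PCNA in the opposite orientation. Its values were 6.68 and 6.88 after control siRNA against 6.78 and 6.73 after BRPF3 siRNA. The BRPF3 siRNA arrays lay between the controls, and the difference was -0.02 ± 0.10 (limma, adjusted p = 0.878). Whether each probe set reads 1 strand alone is not given in the sources used here. RefSeq also lists 4 pseudogenes named for PCNA, and their share in the PCNA signal was not tested.

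TIMELESS was the 1 of 5 tested fork protection genes that rose, and 0 fell, where 6.32% of all tested genes rose. TIMELESS was chosen on this contrast, and of the other 4 tested genes 0 rose and 0 fell in limma's test. TIPIN, the protein that forms a stable pair with TIMELESS at the fork, had values of 8.15 and 8.14 after control siRNA against 7.68 and 7.89 after BRPF3 siRNA. Both BRPF3 siRNA arrays lay below both controls, opposite to TIMELESS, but they were spread more widely. TIPIN differed by -0.36 ± 0.10 and did not pass (limma, adjusted p = 0.0609). It passed with an intensity trend (adjusted p = 0.0178) and with a filter at the 75th percentile (adjusted p = 0.0208). Within arrays the log2 gap of TIMELESS over TIPIN was larger by 0.71 after BRPF3 siRNA, with SDs of 0.01 and 0.17. CLSPN, the adaptor through which a stalled fork activates CHEK1, differed by -0.12 ± 0.08 (adjusted p = 0.343), a difference that turned to 0.03 with the mean of its probe sets. PARP1, which binds TIMELESS at DNA damage, differed by -0.12 ± 0.08 (adjusted p = 0.328).

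**Figure D3:**
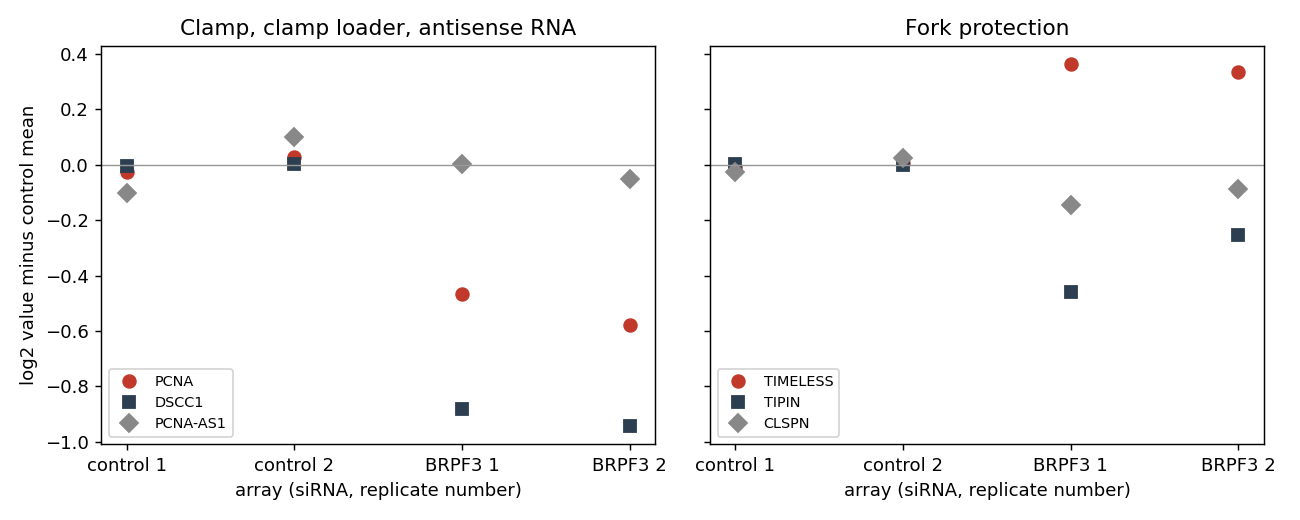
Log2 values on each array minus the mean of the control arrays, for PCNA, its loader subunit DSCC1 and the overlapping antisense RNA PCNA-AS1 (left) and for TIMELESS, TIPIN and CLSPN (right). On both BRPF3 siRNA arrays PCNA and DSCC1 lie below 0 while PCNA-AS1 stays near it, and TIMELESS lies above 0 while TIPIN lies below.

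TIMELESS is named for a fly clock gene, and mammalian TIMELESS binds cryptochrome and period proteins. All 8 listed clock genes were tested, and 0 rose and 0 fell in limma's test, with 4 at an unadjusted p under 0.05 (34.6% over all genes). All 8 of these differences lay above 0, with a median of 0.21, beside 4801 of 10696 above 0 and a median of -0.03 over all tested genes. The clock list was drawn up with earlier results of these data known, and no test of this contrast was run. PER3, a period gene, had the highest difference (0.47 ± 0.13, adjusted p = 0.0637), and its values were 7.59 and 7.51 on the control arrays against 7.84 and 8.19 on the BRPF3 siRNA arrays. CRY2, a cryptochrome, had the lowest (0.08 ± 0.09, adjusted p = 0.577). With a filter at the 75th percentile 4 of 7 clock genes passed, where 34.1% of all genes tested in that setting did. With an intensity trend 2 of 8 passed, where 24.7% of all tested genes did. After quantile normalization, after cyclic loess, with the replicate block and without an intensity filter 0 of 8 passed in limma's test. Over all tested genes 1482, 1502 and 1604 of 10696 and 409 of 14884 changed, in the same order. At an unadjusted p under 0.05 there were 6, 6, 4 and 4 of the 8 clock genes. Over all tested genes 3633, 3652 and 3907 of 10696 and 3842 of 14884 were under it. The median of the 8 clock genes was 0.25 after quantile normalization.

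Genes that govern the removal of CDT1 were followed because CDT1 is controlled largely as a protein, which these arrays do not measure. Of 5 tested genes 0 rose and 0 fell in limma's test, and 3 had an unadjusted p under 0.05 (34.6% over all genes). After quantile normalization or cyclic loess 0 of the 5 had one, and the median difference of the list, -0.20 on the deposited values, was -0.12 under both. CUL4B, a scaffold of the CUL4 ubiquitin ligases, was the lowest (-0.25 ± 0.08, adjusted p = 0.0977), and its relative CUL4A differed by -0.20 ± 0.08 (adjusted p = 0.132). DTL, which recognises CDT1 on PCNA, differed by -0.23 ± 0.08 (adjusted p = 0.119). CKS1B, a cofactor of the SKP2 ligase, was the highest (0.06 ± 0.08, adjusted p = 0.621). With an intensity trend CUL4A, CUL4B and DTL passed, and CUL4B also passed with a filter at the 75th percentile.

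**Figure D4:**
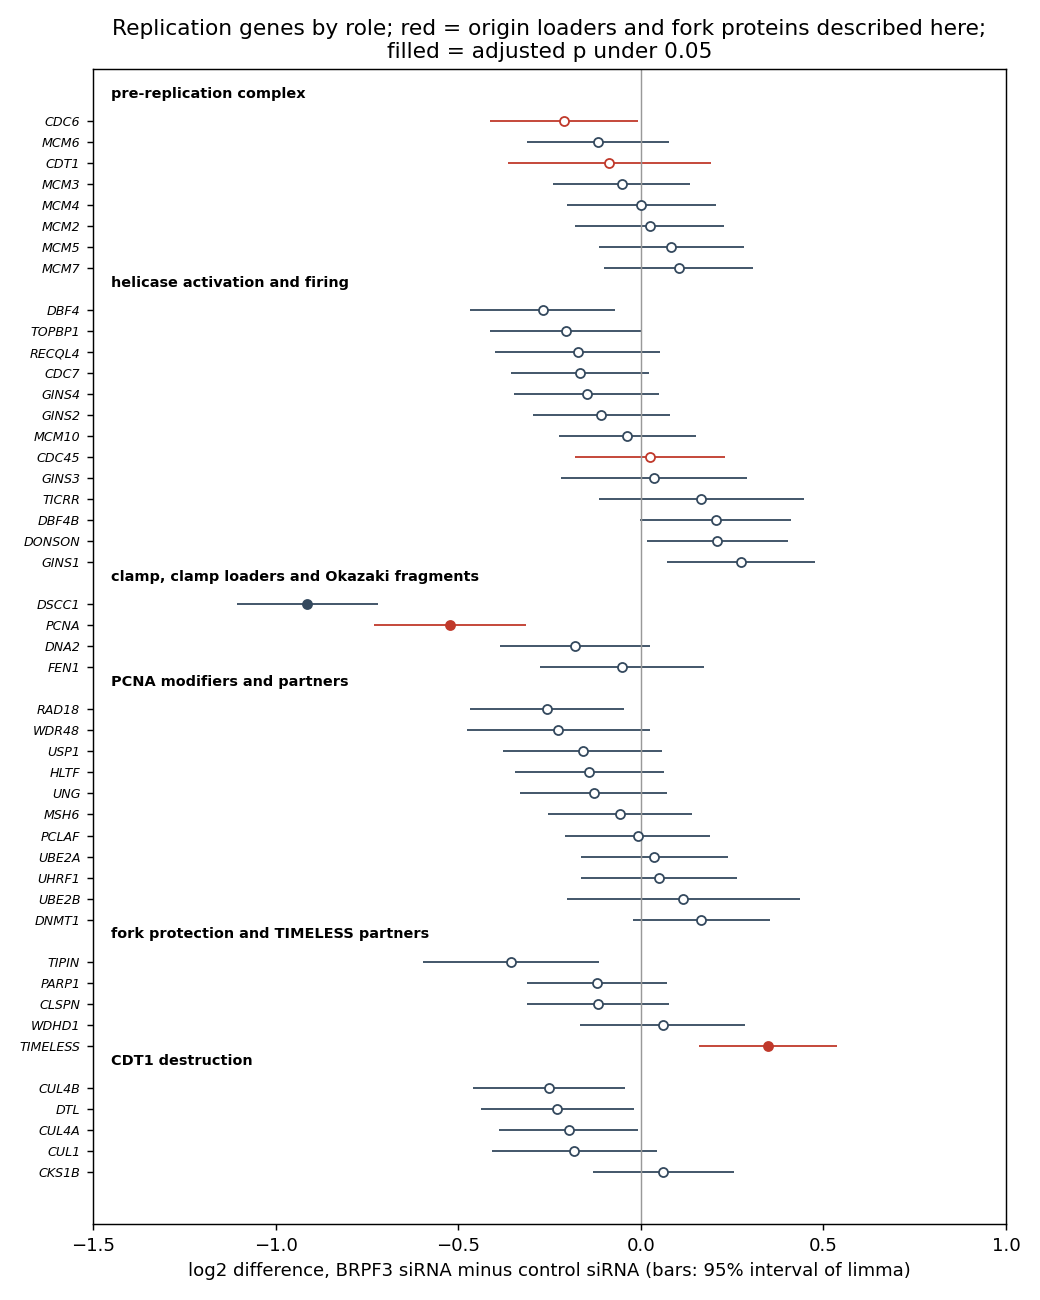
Log2 differences (BRPF3 siRNA minus control siRNA, x axis) of the 46 tested replication genes, grouped by role and ordered by size, with limma's 95% intervals as bars. Filled points passed the test over all genes, and these are DSCC1, PCNA and TIMELESS. The 5 origin and fork genes described here are in red.

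The level of the 5 genes follows the cell cycle, and cell cycle phase was not measured, so genes of the phases are given beside them. Of 17 tested G1/S genes 3 rose and 2 fell, where 6.32% of all tested genes rose and 9.44% fell. RRM2, a subunit of ribonucleotide reductase, rose by 0.47 ± 0.09 (adjusted p = 0.0250), and the E2F family genes E2F2 and E2F8 rose by 0.43 ± 0.09 and 0.41 ± 0.08 (adjusted p = 0.0313 and 0.0288). The cyclins CCNA2 and CCNE1 fell by 0.59 ± 0.08 and 0.51 ± 0.08 (adjusted p = 0.0145 and 0.0210). Of 15 tested G2/M genes 0 rose and 1 fell, the mitotic cyclin CCNB1 (-0.38 ± 0.08, adjusted p = 0.0353), and 3 had an unadjusted p under 0.05. The median difference was 0.10 for the G1/S list and -0.04 for the G2/M list. After quantile normalization these medians were 0.17 and 0.04. CCNE2, a cyclin E gene, differed by 0.38 ± 0.10 (adjusted p = 0.0527) and passed after quantile normalization, after cyclic loess, with the replicate block, with the intensity trend and with the higher filter. The call of CCNB1 ended after quantile normalization and cyclic loess, without an intensity filter and with any single array left out. Without an intensity filter 0 of 17 G1/S genes rose and 1 fell in limma's test, and 6 had an unadjusted p under 0.05. In that setting 409 of 14884 genes changed and 3842 had an unadjusted p under 0.05. All calls of both lists ended when either control array was left out. The G1/S rises also all ended without BRPF3 siRNA replicate 1 or 2, and 1 of the 2 falls ended without replicate 2. The part of cell cycle phase in the differences of PCNA and TIMELESS was not tested.

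The genes whose 4 values ran closest to those of PCNA, after centring each gene on its own mean, were CCNE1, the cyclin that drives entry into S phase, PRDX3, a mitochondrial peroxidase, and RNF31, a subunit of the linear ubiquitin ligase. Their Euclidean distances from PCNA over the 4 arrays were 0.0148, 0.0197 and 0.0226 log2 units, and their differences were -0.51 for CCNE1, -0.54 for PRDX3 and -0.53 for RNF31. CCNE1 was at 10.51 and 10.57 after control siRNA and at 10.09 and 9.97 after BRPF3 siRNA, a course nearly parallel to that of PCNA. The nearest genes to TIMELESS were EMC10, a subunit of the membrane protein insertion complex of the endoplasmic reticulum, TPSD1, a tryptase gene, and ZNF619, a zinc finger gene. Their distances were 0.0127, 0.0137 and 0.0165, and their differences were 0.36 for EMC10, 0.34 for TPSD1 and 0.35 for ZNF619. With 4 arrays in 2 groups these distances are a description only.

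The deposited values shift slightly with intensity, and this touches the bright genes described here. After quantile normalization the difference was -0.43 for PCNA, 0.42 for TIMELESS, -0.13 for CDC6, -0.02 for CDT1 and 0.09 for CDC45, and cyclic loess gave -0.44, 0.42, -0.13, -0.02 and 0.09 in the same order. Each of the 5 differences was thus higher by 0.06 to 0.10, and none changed sign. Falling genes made up 59.9% of the changed genes over the whole array, against 48.4% with quantile normalization and 49.0% with cyclic loess. The calls of PCNA and TIMELESS remained under both.

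**Figure D5:**
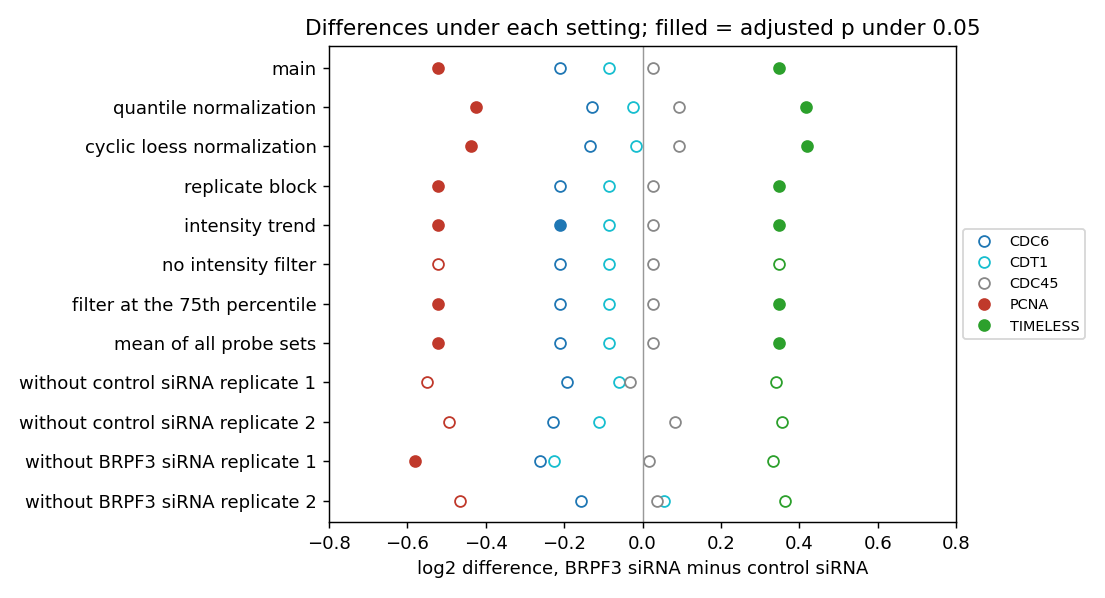
Log2 differences of the 5 genes (BRPF3 siRNA minus control siRNA, x axis) on the deposited values (main, top row) and under 11 other settings. Filled points passed the test over all genes. PCNA stays between -0.58 and -0.43 and TIMELESS between 0.33 and 0.42, while CDT1 and CDC45 each cross 0 once when 1 array is left out.

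No 2 arrays held identical values. Over all tested genes the log2 values of the arrays of a group had an SD of their difference of 0.17 (control siRNA) and 0.20 (BRPF3 siRNA), against 0.31 to 0.32 between arrays of different groups. Of the mesenchymal markers VIM, FN1 and RUNX2 were above the intensity bound of 4.59 and TWIST1 was under it, with 0 of the 3 tested markers changed in limma's test and 0 at an unadjusted p under 0.05. The epithelial markers EPCAM, KRT8, KRT18 and KRT19 were also above the bound, and they did not share 1 direction. KRT18 fell by 0.49 ± 0.09, a call that ended without the filter and without either control array or BRPF3 siRNA replicate 2. EPCAM differed by 0.27 ± 0.08 and did not pass (limma, adjusted p = 0.0754). KRT8 differed by -0.05 ± 0.10 and KRT19 by 0.04 ± 0.13. With a filter at the 75th percentile 1 of 3 tested epithelial markers rose and 1 fell, where 34.1% of all tested genes changed. Of the other markers CD14, PECAM1 and VWF were under the bound, while the leukocyte gene LAPTM5 fell by 0.88 ± 0.13 (a call that ended without either control array or BRPF3 siRNA replicate 1) and ERG differed by -0.03 ± 0.10. The part of these markers in the results above was not tested.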

How the data were processed

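RNA of 4 U2OS samples was measured on Affymetrix whole-transcript arrays, 2 per group. The authors deposited log2 values for 53617 probe sets, made with RMA per the submitters' processing notes, and they were used as deposited. The RMA version and settings and the genome build are not given in the sources used. RMA normalizes between arrays, which removes shifts common to all transcripts, and compresses differences of dim probe sets. A slight shift with intensity remained in the deposited values, as described above. The number of arrays limits the precision.

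A platform annotation named 16098 probe sets (14884 genes), all matched to RefSeq (GRCh38.p14) by identifier. The brightest probe set stood for a gene, and genes whose mean was below 4.59 (the median probe set) were dropped. Groups, taken from sample titles, were compared in R 4.3.3 with limma 3.58.1 (lmFit, eBayes without trend, two-sided, 2 residual and 3.81 prior degrees of freedom), Benjamini-Hochberg adjusted over 10696 genes. The procedure was run on simulated data with variances drawn from limma's own fit, which cannot show whether calls hold on real arrays. An exact permutation test of 2 against 2 arrays cannot go below p = 0.333 and was not used.

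The genes and lists were chosen with earlier results of these data known. The text names the 5 genes, every changed gene of the replication and cell cycle lists, the highest and lowest member of each replication list, and the 3 nearest profiles to PCNA and to TIMELESS. Named beyond this rule, after their values were seen, were MCM2 to MCM6, PCNA-AS1, CDC7, DNA2, USP1, PCLAF, CLSPN, PARP1, CUL4A, DTL, CCNE2 and the clock and marker genes.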

Additional observations from a re-analysis of the deposited data

How the results depend on the processing

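Each result was recomputed under 11 alternatives. The 1686 changed genes became 2645 with an intensity trend and 409 without an intensity filter, and ranged between 0 and 791 with 1 array left out. Leaving out control replicate 1 or 2 gave 0 in limma's test, with 2446 and 2477 genes below an unadjusted p of 0.05. Dropping BRPF3 siRNA replicate 1 gave 719 and dropping its replicate 2 gave 791. In these fits the spread of a lone array is taken from the other group. With every array kept, 1482 of 10696 genes changed after quantile normalization and 1502 after cyclic loess. The filter at the 75th percentile gave 2183 of 6407. Without a filter the 409 were out of 14884, and 3842 had an unadjusted p under 0.05. The counts of replication genes that follow are to be read against these. The 1 risen replication gene became 2 after quantile normalization, 2 after cyclic loess, 3 with the trend, 2 with the filter at the 75th percentile and 0 without a filter (2 at an unadjusted p under 0.05), and 0 with any array left out (1 to 3). The 2 fallen became 10 with the trend, 6 with the higher filter and 1 without a filter, and were between 0 and 2 with single arrays left out.

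CDC6 (-0.21) passed with the trend. PCNA (-0.52) and TIMELESS (0.35) did not pass without a filter. With 1 array left out PCNA ran from -0.58 to -0.47, TIMELESS from 0.33 to 0.36, CDC6 from -0.26 to -0.16, CDT1 from -0.226 to 0.054 and CDC45 from -0.0324 to 0.0841. The difference turned sign for CDT1 without BRPF3 siRNA replicate 2 (0.054) and for CDC45 without control replicate 1 (-0.0324). Where fewer arrays or more and dimmer genes were tested, the test itself differs, and the cause of the other changes was not tested.

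The labels number the arrays in replicate sets but state no shared day or culture. Deviations from group means correlated at 0.14 between arrays of the same number, over genes. With the replicate number as a block 1604 genes changed, and PCNA (-0.52), TIMELESS (0.35), CDC6, CDT1 and CDC45 kept their side of the threshold.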
